A study of Mus musculus with 33 samples.

Results

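The insulin-like growth factor (IGF) binding proteins are 7 secreted proteins encoded by Igfbp1 to Igfbp7. Their genes were taken by symbol from a table of 52631 mouse genes, and all 7 passed the filter on low values that left 16508 genes for testing. RNA was sequenced from 33 libraries in 11 groups of 3. Mouse embryonic stem cells (mES, strain 129S2/SvPas, the strain given for every group) were grown with LIF at 1000 U/mL on inactivated embryonic fibroblasts as feeders. For differentiation, stem cells were plated on gelatin with 10 µM all-trans retinoic acid (RA arm), or with the same dose plus 5 µM CHIR (RA/CHIR arm), in 15% serum for 10 days, followed by 6 days in 10% serum without inducers. CHIR usually denotes a compound that blocks GSK3 and thereby activates Wnt signalling. Each arm was sampled on days 4, 7, 10 and 16. The groups RA-4d to RA-16d are labelled smooth muscle-like, and RA/CHIR-4d to RA/CHIR-16d are labelled as resembling extraembryonic endoderm. Smooth muscle cells (SMC) and extraembryonic endoderm cells (XEN), labelled as controls and grown in 15% serum, served as references. The labels do not say whether replicates are separate cultures, so p-values measure the spread between these libraries, which may be technical.

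IGF1 and IGF2 drive growth and survival through the receptor IGF1R, while IGF2R takes up IGF2 for degradation. The binding proteins hold the ligands outside cells with an affinity like that of the receptor or above it, so they can block, store or deliver them. Proteases such as PAPP-A release the ligand by cleaving certain members. Igfbp7 encodes a more distant relative that binds IGFs weakly and is known from blood vessels and basement membranes.

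Levels are given in FPKM as deposited, a unit that scales fragment numbers to library size and to the length of the transcript. Changes are differences on the log2(FPKM + 1) scale ± standard error from 1 limma model of all groups, and a gene was called at an adjusted p under 0.05 and a change of at least 1 on that scale. "Rose", "fell", "higher" and "lower" refer to such calls. Between 11573 and 13662 genes reached 1 FPKM in a library, columns summed to between 597010 and 1086371 FPKM, and no library pair was identical. Fragment counts were not part of the data used, so the depth behind each value is unknown beyond the depth of about 25M reads per library stated in the labels' protocols. Against lists of markers, RA-16d held all 8 smooth muscle markers at 1 FPKM or more, with a sum of 8979 to 10332 FPKM, where SMC had 18665 to 19332 and RA/CHIR-16d had 467.4 to 483.1. Single markers differed in direction between RA-16d and SMC. Means of Acta2 (3683 in RA-16d against 11435 in SMC), Tagln (3085 against 5437) and Lmod1 were below SMC. Those of Myh11 (85.8 against 15.6), Des (228.2 against 26.8), Cnn1, Actg2 and Smtn were above SMC. For the 8 endoderm markers the sum was highest in RA/CHIR-16d (2004 to 2170 FPKM), with 1005 to 1091 in XEN and 427.5 to 464.0 in RA-16d. On day 4 the order of the arms was the other way, with 937.1 to 965.8 in RA-4d and 525.7 to 548.3 in RA/CHIR-4d. Only Sox17 (mean 72.3 against 164.7) and Pdgfra (34.8 against 38.9) were then below RA/CHIR-4d. The smooth muscle sum of RA-4d was 294.1 to 304.6. The 6 pluripotency markers summed to 6998 to 8186 FPKM in mES, 391.3 to 405.7 in RA/CHIR-10d, 958.2 to 1002 in RA/CHIR-16d and 1.47 to 1.85 in XEN. In RA/CHIR-16d this sum was mostly Dppa5a (mean 796.1) and Pou5f1 (143.7), with Nanog at 3.27 and Sox2 at 3.07. From day 10 to day 16 of RA/CHIR the mean of Dppa5a went up from 163.4, while Pou5f1 went down from 195.0 and Esrrb from 23.5 to 4.56. Means of the other members went up, with Zfp42 going from 14.0 to 27.2. RA-16d also held fibroblast markers (2931 to 3616) and mesothelial markers (230.2 to 259.2). Both cultures thus held markers of more than one cell type, and in bulk RNA fewer cells of a type and less RNA per cell cannot be told apart.

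Of the 7 genes, 4 lie in 2 pairs of close neighbours that face each other with their 3′ ends. In GRCm38, Igfbp1 (chromosome 11, 7197782 to 7202546, plus strand) and Igfbp3 (7206086 to 7213923, minus strand) are 3.54 kb apart. Igfbp2 (chromosome 1, 72824503 to 72852474, plus strand) and Igfbp5 (72857932 to 72874884, minus strand) are 5.46 kb apart. Igfbp4 lies elsewhere on chromosome 11 (99041244 to 99054392), Igfbp6 on chromosome 15 (102144362 to 102149511) and Igfbp7 on chromosome 5 (77349240 to 77408041). The neighbours differ in their levels over the groups, as described below, and the 250 bases before their start sites are shown for that reason, from RefSeq (GRCm38.p6), in the gene's 5′ to 3′ direction. They cover chr11:7197537-7197786 (plus), chr11:7213924-7214173 (minus), chr1:72824230-72824479 (plus, the first of 2 start sites) and chr1:72874866-72875115 (minus). Capitals mark CAAAACA, the core of the insulin response sequence known from Igfbp1 promoters, where FOXO factors bind.
Igfbp1: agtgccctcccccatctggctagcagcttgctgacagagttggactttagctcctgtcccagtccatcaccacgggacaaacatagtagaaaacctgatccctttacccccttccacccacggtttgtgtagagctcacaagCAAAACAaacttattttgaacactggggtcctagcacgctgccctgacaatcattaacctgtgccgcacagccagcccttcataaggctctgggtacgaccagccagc
Igfbp3: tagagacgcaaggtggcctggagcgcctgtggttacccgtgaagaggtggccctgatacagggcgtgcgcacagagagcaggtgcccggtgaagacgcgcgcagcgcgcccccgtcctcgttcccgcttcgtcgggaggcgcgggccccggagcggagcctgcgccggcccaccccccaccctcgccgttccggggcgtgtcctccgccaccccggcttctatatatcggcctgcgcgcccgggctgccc
Igfbp2: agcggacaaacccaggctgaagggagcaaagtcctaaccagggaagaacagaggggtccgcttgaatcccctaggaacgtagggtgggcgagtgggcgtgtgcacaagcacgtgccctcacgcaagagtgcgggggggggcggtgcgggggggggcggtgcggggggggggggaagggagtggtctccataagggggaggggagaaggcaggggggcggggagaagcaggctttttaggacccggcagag
Igfbp5: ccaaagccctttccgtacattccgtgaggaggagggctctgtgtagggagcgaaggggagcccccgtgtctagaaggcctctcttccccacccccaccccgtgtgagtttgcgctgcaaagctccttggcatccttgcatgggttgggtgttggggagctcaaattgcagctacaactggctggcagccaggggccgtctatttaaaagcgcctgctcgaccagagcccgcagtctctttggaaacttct

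The letters CAAAACA begin 108 bases before the start of Igfbp1 and were not found in the windows of the other members. They occur in 6.28% of 32851 mouse promoter windows of 300 bases, on either strand, and this motif was added after the sequence had been seen. The search covered 8 windows for the 7 genes. None held AGGTCA (a nuclear receptor half-site, in 16.3% of all windows), CTTTGA (the TCF/LEF core, 16.0%) or a CArG box (the site of serum response factor, 1.63%). The letters TATAAA (the TATA box, 13.6%) were found for Igfbp4, at -28 from the start. They were also found for Igfbp6, at -148 on the opposite strand. The windows of Igfbp3, Igfbp7 and Igfbp4 held 37, 33 and 27 CpG in 300 bases, against 18 and 14 for the 2 of Igfbp2, 10 for Igfbp5 and 8 each for Igfbp1 and Igfbp6. The Igfbp6 window (chr15:102143936-102144235) follows the RefSeq start and ends before the gene start given above (102144362). A window around that second start was not searched.

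**Figure D1:**
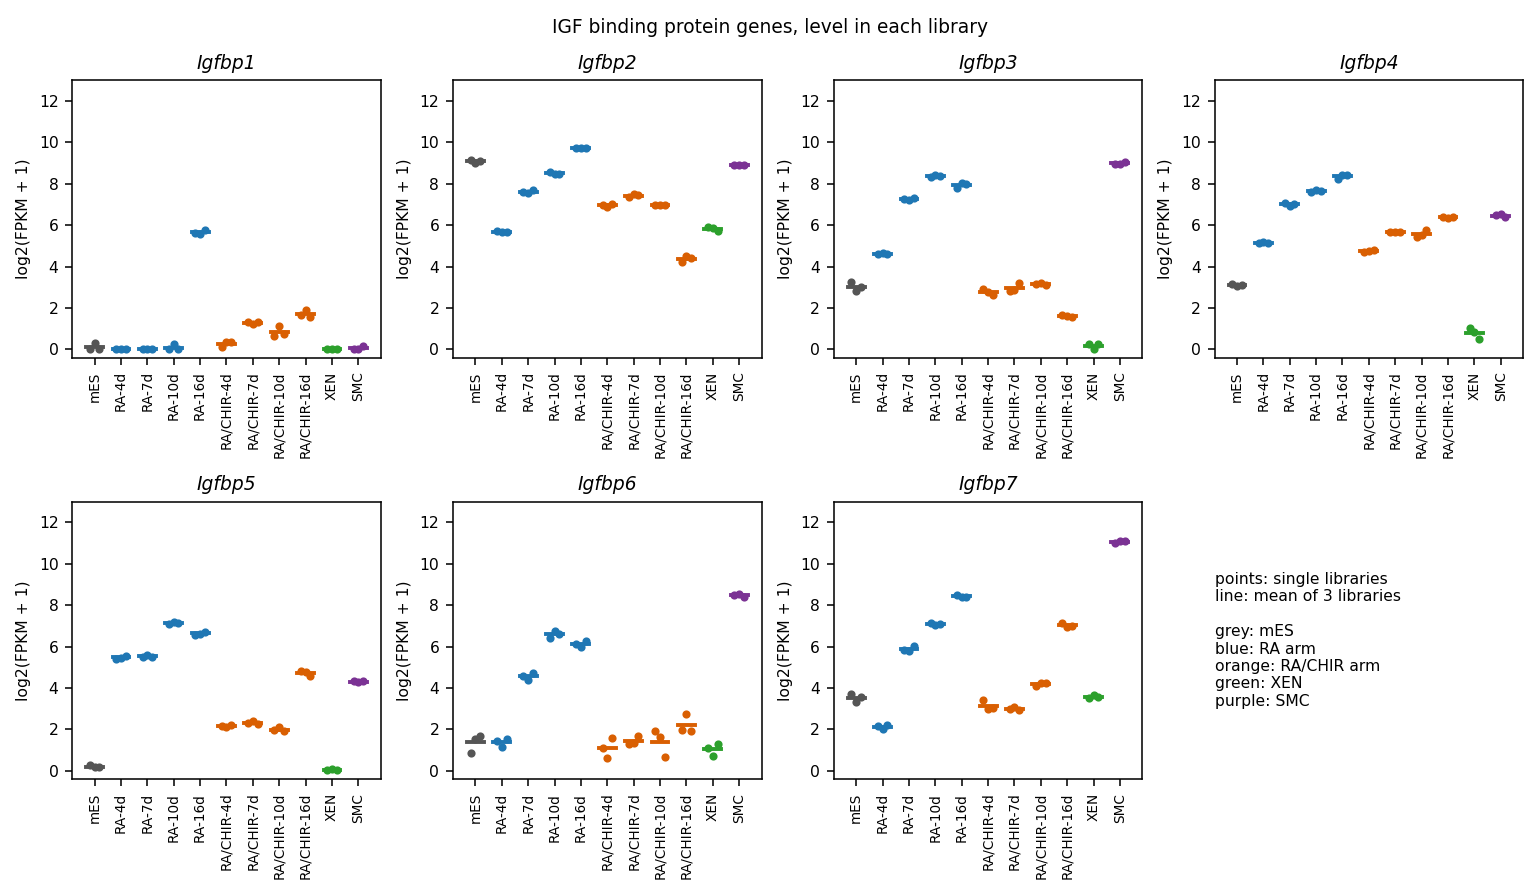
Level of each IGF binding protein gene in the 33 libraries, as log2(FPKM + 1) on the vertical axis, with the 11 groups along the horizontal axis, points for libraries and lines for means of 3. Igfbp2 is high in mES and highest in RA-16d, Igfbp3, Igfbp4 and Igfbp6 are higher in the RA arm than in the RA/CHIR arm from day 7, and Igfbp1 is above 40 FPKM only in RA-16d.

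Stem cells carried mainly one member. Igfbp2, which is abundant in fetal tissues, stood at 560.5, 515.2 and 557.2 FPKM in the 3 mES libraries and made up 95.2% ± 0.217 (SD, n = 3) of the summed FPKM of the family. The other 6 ranged from 0 to 12.0 FPKM there. Igfbp7 was at 10.7 ± 1.58, Igfbp4 at 7.70 ± 0.324 and Igfbp3 at 7.24 ± 1.21 FPKM. The feeder cells are a further source of RNA in this group; the 8 fibroblast markers summed to 37.2 to 63.3 FPKM in mES, and their part in the levels of Igfbp3, Igfbp4 and Igfbp7 was not tested.

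With retinoic acid alone Igfbp2 fell by day 4 and then rose, ending on day 16 with every library above those of mES, a difference under the minimum change (0.64 ± 0.06). The libraries read 51.2, 50.3 and 50.8 FPKM on day 4, a fall of 10.7 times from mES (-3.40 ± 0.06, adjusted p = 1.5e-24). They read 191.5, 186.6 and 207.0 on day 7, then 373.0, 350.1 and 359.2 on day 10, and 847.3, 842.8 and 858.5 on day 16. Every day lay above the one before without overlap, and the steps from day 4 to 7 (1.92 ± 0.06) and from day 10 to 16 (1.23 ± 0.06) passed the test, while that from day 7 to 10 (0.89 ± 0.06) was under the minimum change. With CHIR the course was flatter and ended low. The libraries read 125.7, 117.4 and 128.3 FPKM on day 4, 161.9, 182.2 and 172.5 on day 7, 125.5, 123.3 and 122.9 on day 10, and 17.4, 22.2 and 20.4 on day 16. The level on day 16 was the lowest of all 11 groups, below XEN at 51.1 to 60.2, and 42.4 times below RA-16d.

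Igfbp3, Igfbp5 and Igfbp6 were higher than mES by day 7 of RA, and with CHIR none of the 3 exceeded 9 FPKM through day 10. The RA groups differ from mES also in LIF, feeder cells and time in culture, which cannot be told apart from retinoic acid. Igfbp3 encodes the main IGF carrier of serum. With RA it rose from 6.16 to 8.54 FPKM in mES to 23.0, 24.4 and 23.3 on day 4, 154.9, 148.1 and 159.6 on day 7, and 321.2, 337.7 and 327.7 on day 10, and it stood at 224.3, 259.8 and 253.2 on day 16. With CHIR it stayed near the mES level on days 4 to 10, at 5.13 to 8.32 over these 9 libraries, and fell to 2.16, 2.08 and 1.94 on day 16. The arms did not overlap on any day.

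Igfbp5, which encodes a binding protein that associates with extracellular matrix, had the largest of the 3 changes on day 4. It was at 0.125 to 0.217 FPKM in mES and at 41.8, 43.1 and 45.7 in RA-4d (5.27 ± 0.06, or 7.43 with a pseudocount of 0.1). It showed no called step to day 7 (44.7, 47.4 and 44.0), rose to 133.7, 145.0 and 139.4 on day 10 and stood at 94.7, 98.0 and 104.7 on day 16. With CHIR it was at 2.77 to 4.32 over the 9 libraries of days 4 to 10 and rose 8.52 times to 26.9, 26.4 and 22.8 on day 16. Even at its highest in the RA/CHIR arm it lay below every RA library of every day.

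Igfbp6 encodes the member with a marked preference for IGF2. On day 4 of RA its libraries (1.71, 1.22 and 1.87 FPKM) overlapped those of mES (0.844, 1.93 and 2.26). It rose to 23.0, 20.3 and 25.6 on day 7 and to 85.3, 105.5 and 98.1 on day 10, and stood at 67.7, 61.4 and 76.4 on day 16. With CHIR its 12 libraries ranged from 0.519 to 5.73, and none of the 4 days was called against mES. Mesothelial and fibroblast marker sums went up alongside Igfbp3 and Igfbp6 over days 4 to 10 of RA. The 4 mesothelial markers were at 14.2 to 16.6 FPKM on day 4, 100.8 to 106.1 on day 7 and 198.1 to 212.8 on day 10, against 1.04 to 3.40 with RA/CHIR on these days. The 8 fibroblast markers were at 31.1 to 33.2, 118.1 to 125.2 and 215.1 to 226.3 on these days of RA. In SMC, where Igfbp3 and Igfbp6 had their highest levels, the mesothelial sum was 6.10 to 7.33 and the fibroblast sum 11716 to 12037. The part of these markers in the result was not tested.

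Igfbp4 and Igfbp7 rose in both arms, to a lower level with CHIR. Igfbp4, whose product is known mainly as an inhibitor of IGF action and as the classic substrate of PAPP-A, went from 7.40 to 8.04 FPKM in mES to 34.4, 35.2 and 34.4 in RA-4d and to 302.1, 348.0 and 340.4 in RA-16d. In the RA/CHIR arm it went from 25.0, 25.9 and 27.0 on day 4 to 82.1, 79.7 and 83.9 on day 16, a level that overlapped SMC (83.4 to 90.7). It was higher than mES in all 8 treated groups, by 1.63 to 5.25 on the log2 scale. Igfbp7 first moved down with RA, from 8.94 to 12.0 FPKM in mES to 3.50, 3.00 and 3.60 on day 4 (-1.41 ± 0.09). It then rose at each step, to 56.5, 54.7 and 63.7, to 141.4, 130.0 and 135.5, and to 360.9, 339.7 and 340.8 on days 7, 10 and 16. With CHIR it was at 6.72 to 9.59 on days 4 and 7, at 16.2, 17.8 and 18.2 on day 10 and at 142.0, 122.2 and 124.9 on day 16. The 3′ end of Igfbp7 shares 85 exon bases with Polr2b on the other strand, which was at 18.8 to 60.8 FPKM over all libraries; no source used here says that fragments were counted by strand, so reads of the 2 genes cannot be told apart there, and the share of Polr2b reads in low Igfbp7 values was not tested.

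Igfbp1 was the one member to appear only after the inducers were removed from the RA arm. It is known as a liver and decidual gene that insulin represses. It was listed at 0 in 8 of the 9 RA libraries of days 4 to 10, the other reading 0.214 FPKM, and stood at 48.2, 46.4 and 53.7 on day 16. With CHIR it was present at a low level earlier, at 0.0854, 0.265 and 0.301 on day 4, 1.47, 1.34 and 1.52 on day 7, 0.582, 1.22 and 0.694 on day 10, and 2.15, 2.74 and 1.97 on day 16. In the other groups it was listed at 0 in 7 of 9 libraries, with 0.257 in 1 mES and 0.124 in 1 SMC library.

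The comparison of RA/CHIR with RA on each day asks what CHIR changed in the presence of retinoic acid. On day 4, 2 members were higher with CHIR, 2 were lower and 3 were not called, where 7.63% of the genes tested were called (3.34% higher and 4.28% lower). Igfbp2 (1.27 ± 0.06, adjusted p = 7.9e-15) and Igfbp7 (1.03 ± 0.09, adjusted p = 9.6e-10) were higher, and Igfbp5 (-3.30 ± 0.06) and Igfbp3 (-1.84 ± 0.10) lower. Igfbp7 was close to the minimum change, at 0.97 without RA-4d replicate 2 and 0.90 without RA/CHIR-4d replicate 1, and is then not called. Igfbp4 (-0.40 ± 0.09), Igfbp6 (-0.27 ± 0.27) and Igfbp1 (0.28 ± 0.12) were not called, but Igfbp1 is called higher with a pseudocount of 0.1 (1.59).

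By day 7, 5 members were lower with CHIR and 1 was higher, against 10.7% of all genes called (4.06% higher and 6.61% lower). Igfbp3 (-4.32 ± 0.10), Igfbp5 (-3.21 ± 0.06), Igfbp6 (-3.14 ± 0.27), Igfbp7 (-2.88 ± 0.09) and Igfbp4 (-1.33 ± 0.09) were lower, with adjusted p of 2.8e-10 or less. Igfbp7 had thus changed sides, from 2.36 times the RA level on day 4 to 8.30 times below it on day 7. Igfbp1 was higher (1.29 ± 0.12, or 3.95 with a pseudocount of 0.1), with RA listed at 0 in all 3 libraries. Igfbp2 differed by -0.18 ± 0.06 and was not called, although the arms did not overlap.

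On day 10, 6 members were lower with CHIR and none was higher, against 15.4% of all genes called (6.35% higher and 9.07% lower). Igfbp3 (-5.19 ± 0.10), Igfbp6 (-5.19 ± 0.27, or -5.88 with a pseudocount of 0.1) and Igfbp5 (-5.14 ± 0.06) differed most, with levels 40.9, 52.7 and 46.8 times below RA. Igfbp7 (-2.89 ± 0.09), Igfbp4 (-2.09 ± 0.09) and Igfbp2 (-1.53 ± 0.06) followed. Igfbp1 was not called (0.76 ± 0.12), and is called higher with a pseudocount of 0.1 (2.61). The 7 had a median difference of -2.89, where the median of all genes tested was 0.

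On day 16, all 7 were lower in the RA/CHIR arm, against 21.3% of all genes called (8.41% higher and 12.9% lower). Every RA/CHIR library lay below every RA library for each of them, as for 32.2% of all genes tested. The order of the differences had changed. Igfbp3 (-6.33 ± 0.10, adjusted p = 4.2e-26) and Igfbp2 (-5.34 ± 0.06) led, followed by Igfbp1 (-3.94 ± 0.12), Igfbp6 (-3.90 ± 0.27), Igfbp4 (-2.00 ± 0.09), Igfbp5 (-1.93 ± 0.06) and Igfbp7 (-1.42 ± 0.09). Igfbp3 was 119 times below RA, while Igfbp5, 46.8 times below on day 10, was 3.91 times below. The 8 fibroblast markers summed to 2931 to 3616 FPKM with RA on this day but to 428.0 to 468.8 with RA/CHIR, and their part in the result was not tested.

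**Figure D2:**
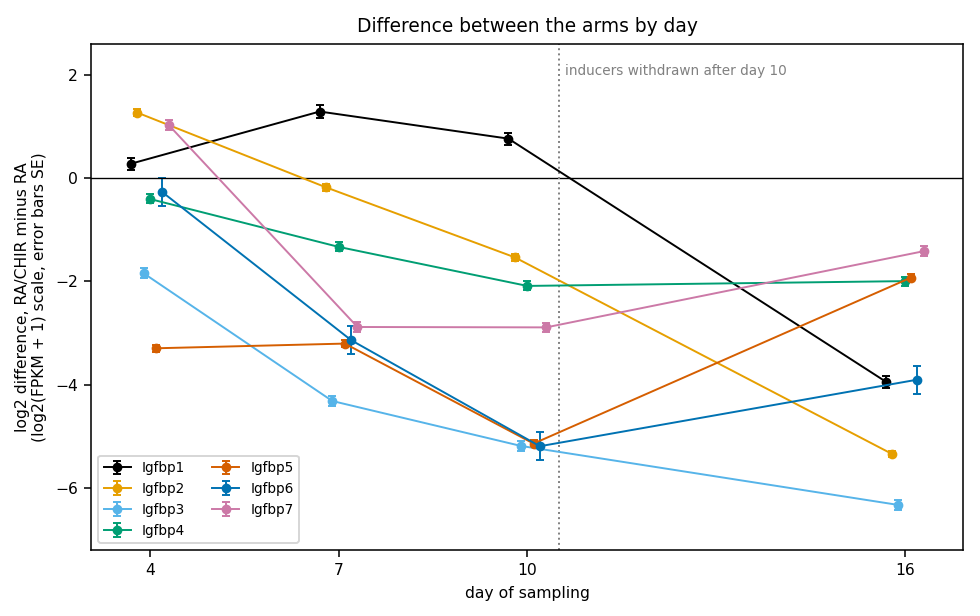
Difference between the arms (RA/CHIR minus RA, log2(FPKM + 1) scale, error bars SE) for the 7 genes on the 4 days of sampling, with points set slightly apart within a day. Differences spread from -3.30 to 1.27 on day 4 and all lie below 0 on day 16, where Igfbp3 is at -6.33 and Igfbp7 at -1.42.

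The step from day 10 to day 16 shows what happened when the inducers were removed and serum was lowered from 15% to 10%, changes that cannot be told apart from each other or from 6 more days of culture. In the RA arm, 3 members rose and none fell, where 9.17% of all genes were called, 7.37% higher and 1.8% lower. These were 1217 higher and 297 lower genes, or 1031 and 444 under quantile normalization. They were Igfbp1 (5.56 ± 0.12, or 8.40 with a pseudocount of 0.1), Igfbp7 (1.35 ± 0.09) and Igfbp2 (1.23 ± 0.06). In the RA/CHIR arm, 2 rose and 2 fell, against 14.8% of all genes called (8.47% higher and 6.28% lower). Igfbp7 (2.83 ± 0.09) and Igfbp5 (2.73 ± 0.06) rose, and Igfbp2 (-2.58 ± 0.06) and Igfbp3 (-1.56 ± 0.10) fell. Igfbp1 (0.85 ± 0.12) was under the minimum change, and reached 1.40 with a pseudocount of 0.1. Igfbp6 (0.80 ± 0.27) reached 1.18 at that pseudocount and 1.06 without RA/CHIR-10d replicate 1, and is then called.

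Marker sums moved in the same step. With RA, smooth muscle markers went from a sum of 1256–1274 FPKM on day 10 to 8979–10332 on day 16, and fibroblast markers from 215.1–226.3 to 2931–3616. With RA/CHIR, fibroblast markers went from 28.2–29.7 FPKM to 428.0–468.8, and endoderm markers from 799.1–829.9 to 2004–2170. Among the endoderm markers, mean Lama1 went from 160.1 to 945.9 and Dab2 from 22.0 to 245.7. Sox17 moved little (333.4 to 361.8), and Sox7 was the only one to go down (9.59 to 5.81). The part of all these markers in the changes of the binding proteins was not tested.

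The difference between these 2 steps was itself tested, by subtracting the RA step from the RA/CHIR step, and 6 of the 7 members passed, where 14.8% of all genes did (6.02% above 0 and 8.81% below). Igfbp1 (-4.71 ± 0.17, adjusted p = 1.0e-17), Igfbp2 (-3.81 ± 0.09, adjusted p = 3.0e-21) and Igfbp3 (-1.14 ± 0.14) moved less upward or further down in the RA/CHIR arm. Igfbp5 (3.21 ± 0.09, adjusted p = 1.0e-19), Igfbp7 (1.48 ± 0.13) and Igfbp6 (1.29 ± 0.38, adjusted p = 0.0081) moved further up there. Igfbp3 is at -0.91 under quantile normalization and Igfbp6 at 0.91 without RA/CHIR-10d replicate 3, and each is then not called. With a pseudocount of 0.1 the value of Igfbp1 is -6.995. Igfbp4 was called in neither step (0.71 ± 0.09 with RA and 0.81 ± 0.09 with RA/CHIR), with a difference between them of 0.09 ± 0.12. Within both pairs of neighbours the 2 genes differed in this step: in the RA arm Igfbp1 rose while Igfbp3 moved by -0.42 ± 0.10, and in the RA/CHIR arm Igfbp2 fell while Igfbp5 rose.

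**Figure D3:**
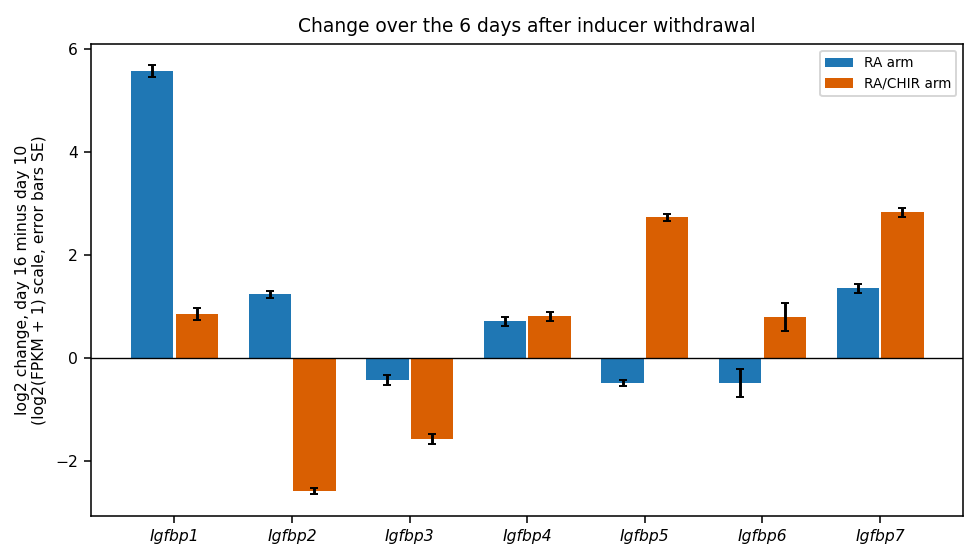
Change from day 10 to day 16 in the RA arm (blue) and the RA/CHIR arm (orange) for the 7 genes, on the log2(FPKM + 1) scale with SE. Igfbp2 rises by 1.23 with RA and goes to -2.58 with RA/CHIR, while Igfbp5 is at -0.49 and 2.73.

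The steps before withdrawal are given for each arm. From day 4 to 7 of RA, 5 members rose and none fell (4.81% of all genes were called, 2.77% higher and 2.04% lower), namely Igfbp7 (3.76 ± 0.09), Igfbp6 (3.21 ± 0.27), Igfbp3 (2.66 ± 0.10), Igfbp2 and Igfbp4 (1.85 ± 0.09). From day 7 to 10 of RA, 4 rose and none fell (1.99% of all genes were called, 1.16% higher and 0.836% lower), namely Igfbp6 (2.02 ± 0.27), Igfbp5 (1.60 ± 0.06), Igfbp7 (1.21 ± 0.09) and Igfbp3 (1.09 ± 0.10). In the RA/CHIR arm, 1 member rose and none fell in each of these steps. From day 4 to 7, 2.72% of all genes were called (1.1% higher and 1.62% lower), and from day 7 to 10, 1.07% (0.642% higher and 0.424% lower). These were Igfbp1 from day 4 to 7 (1.01 ± 0.12) and Igfbp7 from day 7 to 10 (1.20 ± 0.09). Igfbp1 is at 2.36 with a pseudocount of 0.1 and is not called without RA/CHIR-4d replicate 1 (0.93) or RA/CHIR-7d replicate 3 (0.99). The differences of these steps between the arms were not tested.

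The comparisons with mES share the 3 mES libraries, so their values are given side by side without a test between them. In RA-4d, 3 members were higher than mES and 2 lower, against 23.4% of all genes called (11.7% higher and 11.7% lower). In RA-7d, 5 were higher and 1 lower, against 27.7% (14% and 13.8%). In RA-10d, 5 were higher and none lower, against 32.5% (16.5% and 16%). In RA-16d, 6 were higher and none lower, against 36.7% (20.4% and 16.3%). The RA/CHIR arm had Igfbp2 as a lower member on all 4 days. In RA/CHIR-4d, 2 were higher and 1 lower, against 18.2% (9.06% and 9.13%), and in RA/CHIR-7d 3 were higher and 1 lower, against 25.2% (12% and 13.2%). In RA/CHIR-10d, 2 were higher and 1 lower, against 29.6% (14.1% and 15.5%), and in RA/CHIR-16d 4 were higher and 2 lower, against 36.3% (18% and 18.3%). On day 16 Igfbp4, Igfbp5, Igfbp7 and Igfbp1 were higher than mES in both arms, Igfbp3 was higher with RA (4.91 ± 0.10) and lower with RA/CHIR (-1.42 ± 0.10), and Igfbp6 was higher with RA (4.74 ± 0.27). With a pseudocount of 0.1 Igfbp6 is also called in RA/CHIR-16d (1.16, against 0.83 ± 0.27) and Igfbp1 in RA/CHIR-10d (2.55, against 0.75 ± 0.12), and the differences of Igfbp1, Igfbp5 and Igfbp6 from mES are larger, such as 8.34, 8.61 and 5.37 in RA-16d. Igfbp2 was lower than mES on days 4 and 7 of RA and on all 4 days of RA/CHIR, most on day 16 (-4.70 ± 0.06, 27.2 times).

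The reference cells SMC and XEN stood far apart. In SMC, Igfbp7 was the most abundant member at 2079, 2173 and 2188 FPKM, followed by Igfbp3 at 491.1, 494.2 and 536.9, Igfbp2 at 476.0, 477.4 and 480.1, and Igfbp6 at 360.2, 369.1 and 338.0. In XEN no member but Igfbp2 (60.2, 56.4 and 51.1) exceeded 12 FPKM: Igfbp7 was at 10.5 to 11.6, Igfbp6 under 2, Igfbp4 at 0.440 to 1.05 and Igfbp5 at 0.0279 to 0.0519. Igfbp3 was at 0.198, 0 and 0.194 and Igfbp1 was listed at 0 in all 3 XEN libraries. Of the 7, 6 were lower in XEN than in SMC and none was higher, against 29.7% of all genes called (12.5% higher and 17.2% lower), with Igfbp3 (-8.82 ± 0.10), Igfbp7 (-7.48 ± 0.09) and Igfbp6 (-7.42 ± 0.27) leading. These 3 are at -7.81, -6.86 and -6.36 under quantile normalization, while with a pseudocount of 0.1 Igfbp3 is at -11.26 and Igfbp6 at -8.27. Against mES, 5 members were higher in SMC (43.2% of all genes called, 21% higher and 22.2% lower). In XEN 3 were lower than mES (33.1% called, 14.4% higher and 18.7% lower), where the median of all genes was shifted by -0.129 on the log2 scale.

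The end of each arm was set beside its reference cells. RA/CHIR-16d differed from XEN in all 7 members, 6 higher and 1 lower, where 23.2% of all genes were called, 14.5% higher and 8.64% lower. These were 2396 higher and 1426 lower genes, or 1789 and 1764 under quantile normalization. Igfbp4 (5.56 ± 0.09), Igfbp5 (4.67 ± 0.06) and Igfbp7 (3.44 ± 0.09) were higher and Igfbp2 was lower (-1.44 ± 0.06). With a pseudocount of 0.1 Igfbp4 is at 6.62, Igfbp5 at 7.54, Igfbp1 at 4.56 and Igfbp3 at 3.39, each with a mean under 1 FPKM in XEN. Igfbp1 was above XEN, which is listed at 0. Igfbp3 (1.44 ± 0.10) is not called under quantile normalization (0.97), nor is Igfbp6 (1.15 ± 0.27), at 0.56, and Igfbp6 is also not called without RA/CHIR-16d replicate 2 (0.88) or XEN replicate 2 (0.99). RA-16d was higher than SMC in Igfbp1, Igfbp5 (2.33 ± 0.06) and Igfbp4 (1.91 ± 0.09), and lower in Igfbp7 (-2.63 ± 0.09), Igfbp6 (-2.36 ± 0.27) and Igfbp3 (-1.04 ± 0.10), where 25.5% of all genes were called (15% higher and 10.5% lower). The call of Igfbp3 is lost when RA-16d replicate 1 is left out (-0.98) and under quantile normalization (-0.50), and Igfbp2 (0.83 ± 0.06) is called at 1.47 under that scaling.

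The make-up of the family differed between groups. As FPKM is scaled by length, shares of the summed FPKM can be compared between members. Igfbp2 held 95.2% in mES and 81.0% ± 1.38 in XEN, 73.4%, 70.7% and 61.5% on days 4, 7 and 10 of RA/CHIR, and 7.58% ± 1.12 on day 16 of RA/CHIR, where Igfbp7 held 48.9% ± 2.41 and Igfbp4 30.9%. In the RA arm Igfbp2 held 28.6% to 42.7%, with Igfbp5 second on day 4 (27.6%) and Igfbp3 second on days 7 and 10 (25.5% and 26.1%). In SMC, Igfbp7 held 59.7% ± 0.477.

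**Figure D4:**
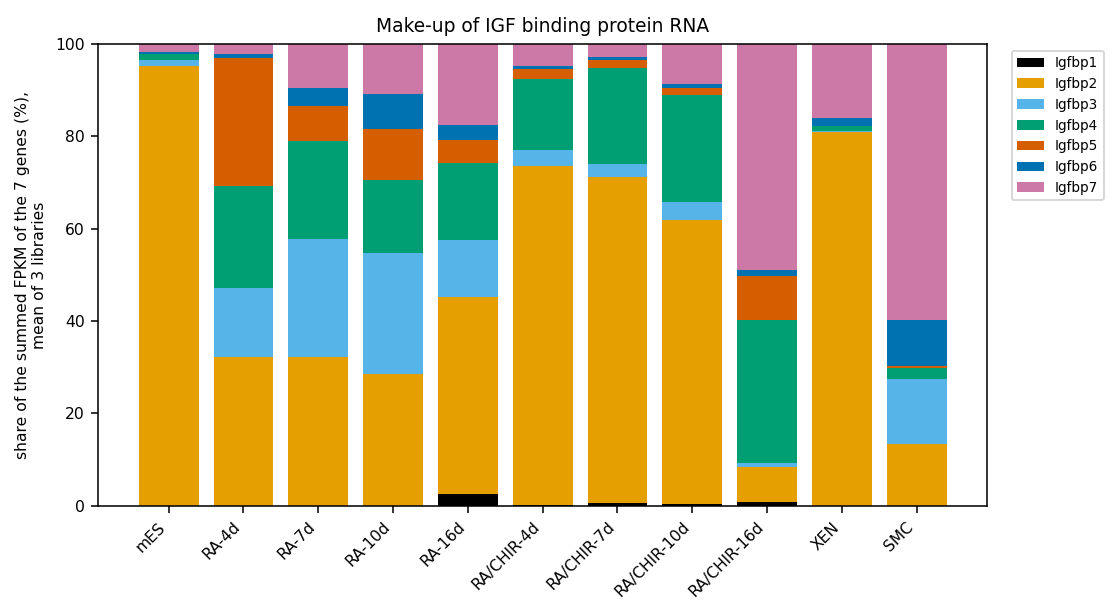
Share of each member in the summed FPKM of the 7 genes (vertical axis, percent, mean of 3 libraries) for the 11 groups. Igfbp2 fills 95.2% of the bar in mES and 7.58% in RA/CHIR-16d, where Igfbp7 fills 48.9%.

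Both ligand genes were higher than mES on day 16 of either arm (Igf1 by 4.36 with RA and 6.99 with RA/CHIR, Igf2 by 8.24 and 5.28), and the difference between the arms had opposite signs for the 2 genes. Igf2 was at 8.94 ± 0.601 FPKM in mES and reached 3009 ± 157.9 by day 16 of RA, but 384.5 ± 13.6 by day 16 of RA/CHIR, and was lower with CHIR on all 4 days (-2.52 to -2.96). Igf1 was higher with CHIR on all 4 days (1.86 to 4.07), at 288.4 ± 10.5 against 46.0 ± 0.645 on day 16. The summed binding protein FPKM, which was not tested, went from 155.6–159.7 on day 4 to 1945–2028 on day 16 of RA. It stayed between 160.5 and 275.6 over the 12 libraries of RA/CHIR. On day 16 the summed FPKM of Igf1 and Igf2 was at 2883 to 3190 with RA and at 665.3 to 678.7 with RA/CHIR, above the binding protein sum in each, while in SMC it was at 6.91 to 8.64 beside a binding protein sum of 3512 to 3646.

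**Figure D5:**
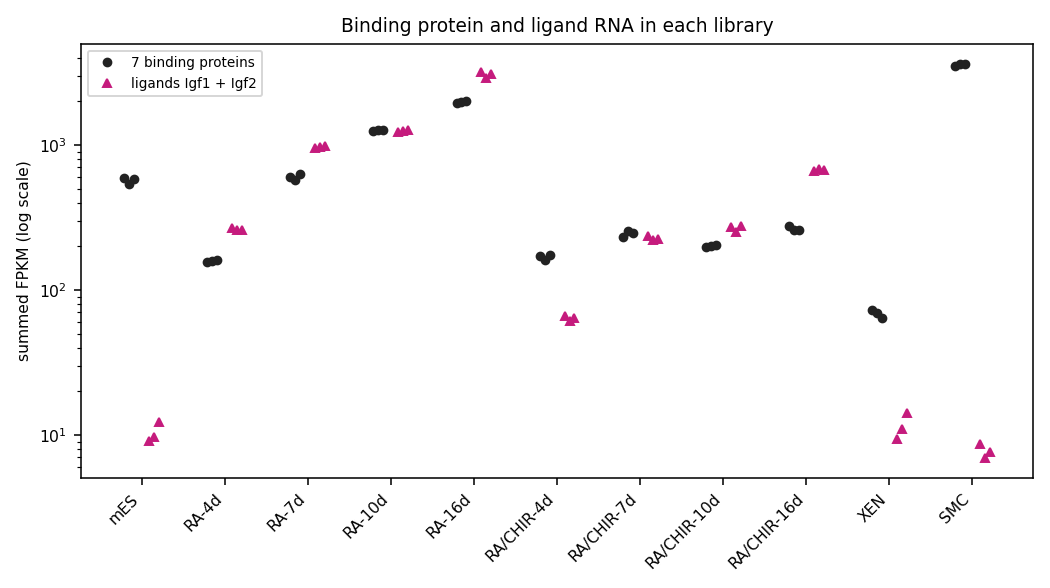
Summed FPKM of the 7 binding protein genes (circles) and of the ligand genes Igf1 and Igf2 (triangles) in each library, on a log axis. Ligand RNA is above binding protein RNA in RA-4d, RA-7d, RA-16d, RA/CHIR-10d and RA/CHIR-16d, and far below it in mES, XEN and SMC.

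A list of 32 other genes of the IGF axis (ligands, receptors, adaptors, proteases, IGF2 mRNA-binding proteins and proteins with a related domain) had 28 members past the filter. With CHIR, 1, 2, 3 and 3 of the 28 were higher and 1, 3, 6 and 9 were lower on days 4, 7, 10 and 16, where 7.63%, 10.7%, 15.4% and 21.3% of all genes were called in either direction. Their median difference on day 16 was -0.41, against -0.0051 for all genes tested. Besides the ligands, Wisp1 (-2.66) and Cyr61 (-1.52) were lower on day 7, and on day 10 Wisp1 (-3.34) was lower and Stc2, an inhibitor of PAPP-A, higher (1.56). Among receptors, Igf1r was lower on day 10 (-1.29), at 2.06 ± 0.547 against 6.46 ± 1.12 FPKM, and Igf2r was not called on any day. Of the proteases, Htra1 was higher with CHIR on days 7, 10 and 16 (1.57, 1.98 and 2.28), reaching 956.1 ± 22.2 FPKM. Pappa and Pappa2, named after their values were seen, were low. Pappa, which encodes PAPP-A, was at 11.1 ± 0.454 FPKM in SMC and under 1 FPKM on average elsewhere. Pappa2 was lower with CHIR on days 10 and 16 (-1.15 and -1.83), at 2.59 ± 0.241 FPKM in RA-16d. Of the relatives with an IGFBP-type domain, Kazald1 (-3.50), Wisp1 (-2.93) and Nov (-2.87) were lower on day 16.

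The members resembled each other to different degrees over the 11 group means of log2(FPKM + 1), which share libraries with all results above. Pearson's r was 0.91 for Igfbp3 with Igfbp6 and 0.909 for Igfbp6 with Igfbp7, 0.87 for Igfbp4 with Igfbp5, but 0.199 for the neighbours Igfbp1 and Igfbp3 and 0.175 for the neighbours Igfbp2 and Igfbp5. Nearest genes were sought among other genes with at least 5 FPKM in some group, leaving out unnamed genes, shared symbols and Gm-numbered or Rik names. Within this set the nearest to Igfbp6 were Ccbe1 (r = 0.992), Wisp1 (0.985) and Axl (0.982). The nearest to Igfbp3 were Magee1 (0.983), Nsg1 (0.982) and Prkacb (0.977). Eci2 (0.982), Trim68 (0.966) and Smad1 (0.960) were nearest to Igfbp4, and Clca3a1 (0.981), Pxmp4 (0.966) and Anxa1 (0.959) to Igfbp7. For Igfbp1 they included Pgc (0.957) and Ifi202b (0.955), both highest in RA-16d. The nearest were, for Igfbp2, Cops2 (0.959), Cbx6 (0.942) and Dnajb5 (0.935), and for Igfbp5 Ovca2 (0.947), Dnajb3 (0.930) and Pik3r2 (0.928).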

How the data were processed

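Poly(A) RNA of 33 mouse libraries was read as paired reads of 150 bp, per the labels' protocols. Build GRCm38, HISAT2 2.0.4 and Trimmomatic 0.33 are listed in the submitters' processing notes, as are Cuffdiff and Cufflinks; parameters are not given in the sources used here. The deposited values are FPKM, computed by the authors. They were used without further scaling as log2(FPKM + 1), for the 16508 genes with at least 1 FPKM in at least 3 libraries. A single model of the 11 group means was fitted with limma 3.58.1 (R 4.3.3; trended prior; 22 residual degrees of freedom), with Benjamini-Hochberg adjustment of two-sided p-values across the genes tested in a comparison, for 24 comparisons. The script was tested on simulated data. Positions are from the GENCODE annotation of GRCm38, and promoters from RefSeq were matched by symbol for all 7 genes. All 7 members are named, with at most 6 called genes of the IGF axis per comparison by size of change, and the 3 genes nearest to each member by Pearson correlation, of which 1 is not reported here. The members and lists were chosen with earlier results of these data known. Python 3.11.15 with pandas 2.3.3 and matplotlib 3.10.9 made tables and plots. Alternatives were another pseudocount, other filters, 2 scalings, a fit of only the groups compared, the replicate number as a block and leaving out each library.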

Additional observations from a re-analysis of the deposited data

Results flagged for a closer look

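The change after inducer withdrawal differed between the arms for 6 of the 7 genes, by a test of that difference in limma (change from day 10 to 16 with RA/CHIR minus that with RA, log2(FPKM + 1) scale). Of all genes tested, 14.8% passed the same test. The difference was -4.71 for Igfbp1 (-6.995 with a pseudocount of 0.1), -3.81 for Igfbp2, -1.14 for Igfbp3, 3.21 for Igfbp5 (3.215 before rounding), 1.29 for Igfbp6 and 1.48 for Igfbp7 (1.475 before rounding). For these 6 genes the day 16 libraries did not overlap the day 10 libraries in either arm, but the share of all genes without overlap was not computed. For Igfbp6 with RA/CHIR the gap was narrow, from at most 2.79 FPKM on day 10 to at least 2.81 on day 16. Neither step of Igfbp6 was called.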

How the results depend on the processing

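Of the 168 values of the 7 genes in 24 comparisons, 112 were called. Over all alternatives, 2206 of 2226 recomputed values kept their side of the threshold, 12 lost and 8 gained a call, and none of the called values changed sign. With a pseudocount of 0.1, 32 called values moved by over 1.5 times, each with a group mean under 2 FPKM, and 8 did so under quantile normalization, all in comparisons with SMC or XEN; other alternatives moved none that far. That pseudocount also raised the number of all genes called to 2192, 2964 and 3888 for RA/CHIR against RA on days 4, 7 and 10 (1259, 1762 and 2546 as reported). It gave 1584, 754 and 2339 for the steps from day 4 to 7, 7 to 10 and 10 to 16 of RA (794, 329 and 1514), and 1054, 526 and 3820 for those of RA/CHIR (449, 176 and 2435). Leaving out 1 library, between 0 and 1 members were called from day 4 to 7 of RA/CHIR. Quantile normalization moved the median of all genes from -0.129 to 0.0152 for XEN against mES and from 0.075 to -0.0784 for RA/CHIR-16d against XEN. Same-numbered libraries of different groups did not deviate together (median r -0.00375 over 165 pairs, 5 of them over 0.1). Of 33 libraries, 11 correlated best with their own number. No pairing by number was thus found, though this check cannot exclude one. With the replicate block 7 members were called on day 16, as without it, and no call of a member changed. Without counts, precision at low FPKM is unknown, which bears on Igfbp1, on Igfbp6 with CHIR and on the levels in XEN.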
